A study of Homo sapiens with 12 samples.

Results

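ETS factors are DNA-binding proteins that share an ETS domain and read a GGAA core, and 10 human genes that encode ETS factors linked to the ERK kinases are described here: ETV1, ETV4, ETV5, ETV6, ELK1, ELK3, ELK4, ETS1, ETS2 and FLI1. They were taken as named genes, with every probe set that the platform annotation pairs with 1 of these symbols alone, which gave 41 of 54613 non-control probe sets and 10 of 19775 genes. Raf activates MEK, MEK activates ERK, and active ERK enters the nucleus and phosphorylates several ETS proteins, among them ELK1, ETS1 and ETS2, which then recruit coactivators. ERK signalling also raises the transcription of the PEA3 subfamily, ETV1, ETV4 and ETV5, in part by removing the repressor capicua from their regulatory DNA. Arrays measure RNA and not the phosphorylation or the amount of the proteins.

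RNA came from INA-6, an established human myeloma cell line that grows on interleukin-6, after the Raf inhibitor SB590885, the MEK inhibitor PD325901 or the solvent DMSO, with 4 arrays in each group. In all groups 300000 cells were treated, in medium that held 2 ng/ml interleukin-6 and 10% fetal calf serum. Neither dose nor duration is given in the sources used here, and the compounds are compared only as used in these cultures. The study calls the 4 arrays of a group biological replicates, all of 1 cell line.

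Each value is the log2 expression of a probe set, so that 1 unit is a doubling. Array medians lay between 6.88 and 6.97 and array minima between 5.85 and 6.01, so weak genes had a floor near these values. As a mark of dim signal, 53 probe sets of 24 genes restricted to other tissues had a median of 6.67 and a 95th percentile of 7.23, and the median of all probe sets was 6.92. Of the markers of plasma cells, the cell type of myeloma, 9 of 11 measured genes had a group mean above 7.23, against 4 of 6 B cell markers, 3 of 10 T and NK cell markers, 1 of 6 endothelial, 1 of 6 fibroblast and 0 of 7 monocyte markers. With SB590885 against DMSO 3 plasma cell, 1 B cell and 1 T and NK cell marker fell, where 1.69% of all genes did. With PD325901 against DMSO 0 of the markers fell, where 0.506% of all genes did. Between the inhibitors 4 plasma cell markers and 1 endothelial marker were lower with SB590885, where 169 of all 19775 genes were lower and 2.82% passed in either direction. The part of these changes in the results below was not tested. A second label marks arrays 3 and 4 of each group with an R, a mark that no source used here explains. In 3 of the 10 genes (ETS1, ELK3 and FLI1) every marked array lay below every unmarked one. The share of all genes that did so was not computed. Treatment differences are therefore also given within same-numbered arrays and within each set.

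Of the 10 genes, ETV5 alone passed the test without a replicate block, and it did so in all comparisons. With SB590885 ETV5 fell and the other 9 genes did not pass, where 3.28% of all 19775 genes passed in either direction and 1.69% fell. With PD325901 ETV5 again fell and 9 did not pass, where 0.592% of all genes passed and 0.506% fell. Between the inhibitors ETV5 was higher with SB590885 than with PD325901 and 9 did not pass, where 2.82% of all genes passed and 1.97% were higher. The test was limma's moderated test with Benjamini-Hochberg adjustment over all genes, and a gene was called at an adjusted p under 0.05. It was fitted without the replicate number as a block. With that block 3, 5 and 5 of the 10 genes passed for SB590885 against DMSO, PD325901 against DMSO and SB590885 against PD325901. Of all genes 18.9%, 8.14% and 18.1% then passed. The median difference of the 10 genes was -0.04 for SB590885 against DMSO, beside 0.00 over all genes, and -0.18 for PD325901 against DMSO, beside -0.00 over all genes. For SB590885 against PD325901 it was 0.12, beside 0.00 over all genes.

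**Figure D1:**
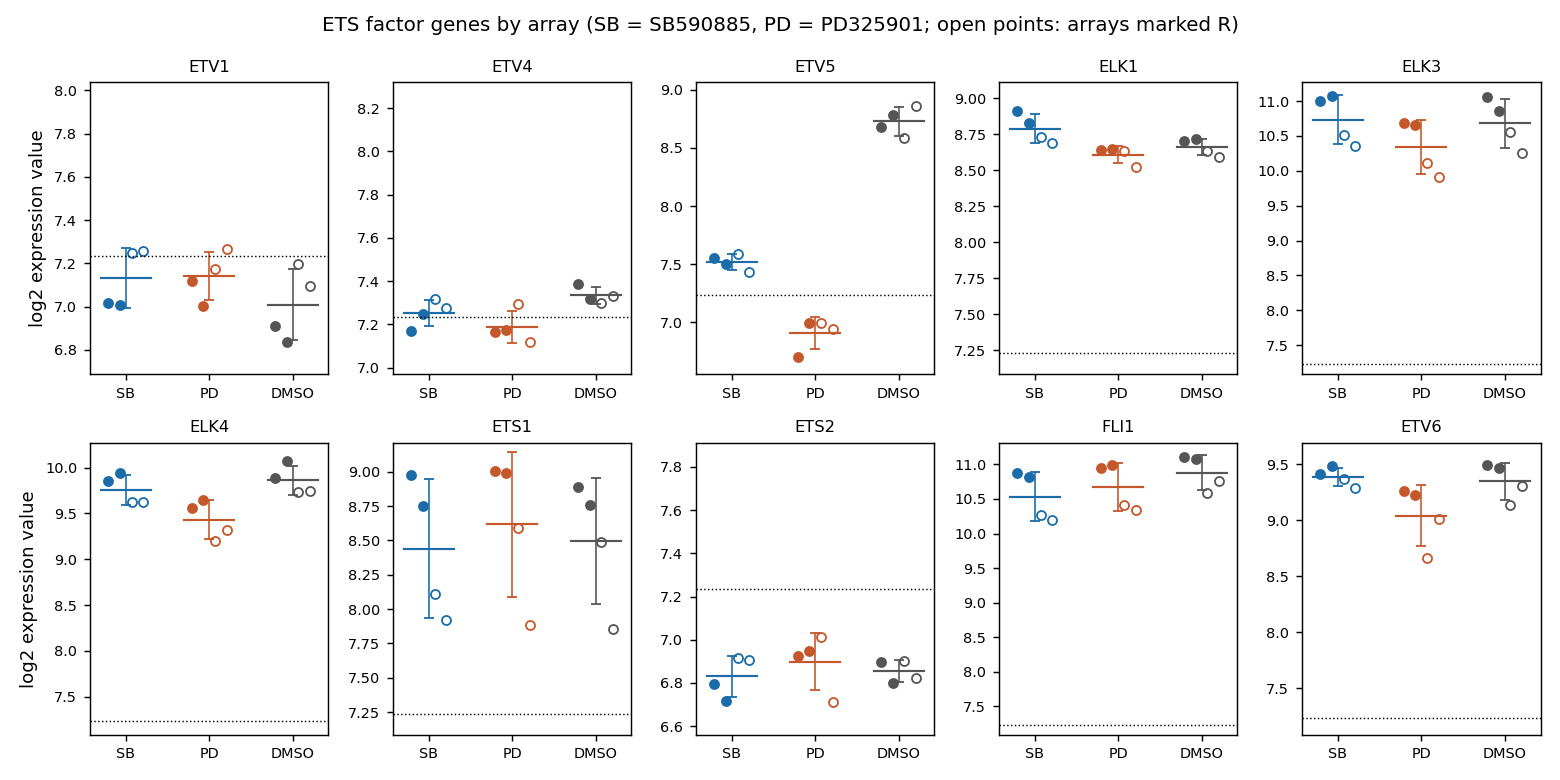
The log2 expression value of each of the 10 ETS factor genes on each array (y axis) by treatment (x axis), with the bar at the mean, error bars of 1 SD (n = 4), open points for arrays marked R and a dotted line at 7.23, the 95th percentile of tissue-restricted probe sets. ETV5 separates the 3 treatments. Within every treatment the open points of ELK1, ELK3, ELK4, ETS1, FLI1 and ETV6 lie below the filled ones. In ELK3, ETS1 and FLI1 they do so across treatments as well. The y axes span different ranges.

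The PEA3 factors activate transcription of genes for growth and branching in many tissues. ETV5 was the member that passed with both inhibitors without the block. It had log2 levels of 7.55, 7.50, 7.58 and 7.43 with SB590885, 6.70, 6.99, 6.99 and 6.94 with PD325901, and 8.68, 8.79, 8.58 and 8.87 with DMSO. The 3 groups did not overlap, with PD325901 lowest, SB590885 between and DMSO highest. ETV5 averaged 7.51 ± 0.07 with SB590885, against 8.73 ± 0.12 with DMSO (SD, n = 4 each), a log2 difference of -1.21 (SE 0.08, adjusted p = 6.18e-05). This is 43.1% of the DMSO level on the linear scale. In RNA from a whole culture, fewer cells with a transcript and less of it per cell cannot be told apart.

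With PD325901 ETV5 averaged 6.91 ± 0.14, against the same 8.73 ± 0.12 with DMSO, a log2 difference of -1.82 (SE 0.08, adjusted p = 5.98e-07) or 28.3% of the DMSO level. The PD325901 mean lay under the dim-signal mark of 7.23 and at the median of all probe sets, so neither the size of this fall nor a ratio to this mean is exact. Set side by side, SB590885 (7.51 ± 0.07) left 1.52 times the ETV5 signal of PD325901 (6.91 ± 0.14), a log2 difference of 0.61 (SE 0.08, adjusted p = 0.00172). Within same-numbered arrays ETV5 differed by -1.13, -1.29, -1.0 and -1.44 with SB590885 and by -1.98, -1.80, -1.59 and -1.92 with PD325901, both against DMSO. All pairs ran the same way. For this probe set, 203349_s_at, the differences hardly depended on the R mark, at -1.22 on marked and -1.21 on unmarked arrays for SB590885 and -1.76 and -1.89 for PD325901.

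The 5 probe sets that read ETV5 did not move alike. Besides 203349_s_at, which stands for the gene above, 203348_s_at read 7.21, 7.19, 7.20 and 7.25 with SB590885, 7.04, 6.73, 6.84 and 6.86 with PD325901, and 8.21, 8.06, 7.62 and 7.77 with DMSO. It fell by 0.70 with SB590885 (adjusted p = 0.00858) and by 1.05 with PD325901 (adjusted p = 0.00127), adjusted over all 54613 probe sets. On marked and unmarked arrays the 203348_s_at difference was -0.47 and -0.94 with SB590885 and -0.85 and -1.25 with PD325901, and the change with the mark did not pass over all probe sets (adjusted p = 0.318 and 0.88). The probe set 230102_at fell by 0.74 (adjusted p = 0.00235) and by 0.97 (adjusted p = 0.000404). Both inhibitor means of 203348_s_at (7.21 and 6.87) and of 230102_at (6.83 and 6.60) lay under 7.23, so the sizes of these falls are not exact. Neither inhibitor group overlapped DMSO in these probe sets. The other 2, 216375_s_at and 231083_at, lay under 7.23 in every group and their differences of -0.15 and -0.04 with SB590885 and -0.23 and -0.06 with PD325901 did not pass, though 216375_s_at passed for PD325901 with the replicate block (adjusted p = 0.0229). So 3 of 5 ETV5 probe sets fell with each inhibitor, where 0.947% of all probe sets fell with SB590885 and 0.291% with PD325901. With the block the ETV5 counts were 3 and 4, where 6.83% and 3.61% of all probe sets fell. Between the inhibitors the rise with SB590885 passed without the block in 203349_s_at alone. There 203348_s_at gave 0.35 and 230102_at 0.23 (adjusted p = 0.173 and 0.283, and adjusted p = 0.0108 and 0.0343 with the block). The probe sets 216375_s_at and 231083_at gave 0.08 and 0.02 and passed in neither fit. With the mean of all 5 probe sets in place of the brightest, the ETV5 differences were -0.57 for SB590885 and -0.83 for PD325901, and 0.26 between the inhibitors.

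**Figure D2:**
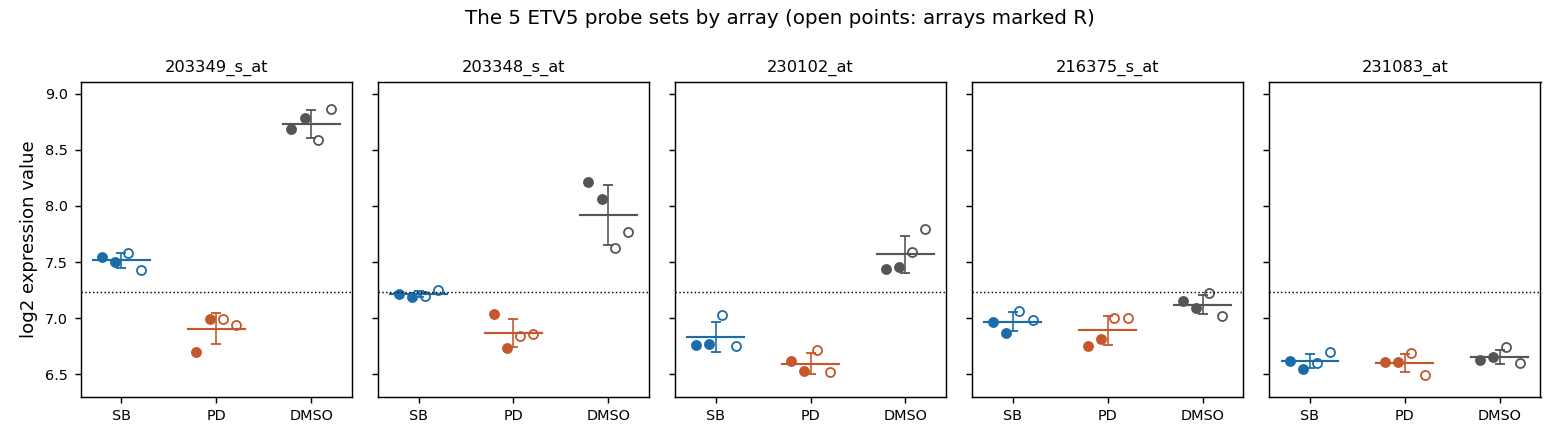
Log2 expression value (y axis) of the 5 ETV5 probe sets on each array by treatment (x axis), with means as bars, error bars of 1 SD (n = 4), open points for arrays marked R and a dotted line at 7.23. In the 3 probe sets on the left DMSO lies above both inhibitors on every array, and in the 2 on the right all groups lie under the line on average.

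The genes whose pattern over the 12 arrays was most like that of ETV5, once the mean of each replicate number had been subtracted, were RGS16 (r = 0.99), MYEOV (r = 0.98), TMC8 (r = 0.98), PPP1R18 (r = 0.98) and RCBTB2 (r = 0.98), among 12870 genes with a group mean at or above 6.92. These correlations describe 12 arrays in 3 groups and carry no test. Of them RGS16, a regulator of G-protein signalling, averaged 8.81 ± 0.20 with SB590885, 8.66 ± 0.20 with PD325901 and 9.17 ± 0.17 with DMSO. Without the replicate block RGS16 passed in neither comparison with DMSO (adjusted p = 0.172 and 0.13). That fit keeps the spread between replicate numbers, which the correlation had removed, and no blocked value is given for RGS16. TMC8 fell by 0.51 with SB590885 (adjusted p = 0.0105) and by 0.77 with PD325901 (adjusted p = 0.00151). Without the subtraction the most similar genes were FCMR, PTPN6, CCL2, INPP5D and MYEOV, so only MYEOV stood in both lists of 5.

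ETV4 and ETV1 lay close to dim signal. ETV4 read 7.17, 7.25, 7.32 and 7.28 with SB590885, 7.16, 7.17, 7.29 and 7.12 with PD325901, and 7.39, 7.32, 7.30 and 7.33 with DMSO. Every PD325901 array lay under every DMSO array, by a narrow margin, and the SB590885 and DMSO arrays overlapped. The ETV4 differences were -0.08 (SE 0.05, adjusted p = 0.587) for SB590885 and -0.15 (SE 0.05, adjusted p = 0.414) for PD325901, both against DMSO, and neither passed with the replicate block (adjusted p = 0.312 and 0.0842). The other ETV4 probe set, 211603_s_at, gave -0.07 and -0.14 (adjusted p = 0.414 and 0.105 with the block). With the mean of its probe sets ETV4 passed for PD325901 with the block (adjusted p = 0.0318), in 1 of 17 settings of the block. ETV1 had 0 of 5 probe sets above the dim-signal mark. Its differences of 0.12 (95% confidence interval -0.08 to 0.33) with SB590885 and 0.13 (-0.07 to 0.33) with PD325901 did not pass, and at this level the arrays say little about a fall.

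ETV1 had 6 promoters in the RefSeq table (GRCh38.p14). Of the 250 bases before each start, 1 promoter held the capicua octamer TGAATGNA, sought on both strands, as did 3.246% of the 35116 human promoters searched. It is shown as the match found in a PEA3 gene, and the capitals mark the octamer, at positions -125 to -118 from the start site, on the gene's strand. The window is chr7:13991426-13991675 on the minus strand, and a match is no evidence that capicua binds there.
ETV1 promoter: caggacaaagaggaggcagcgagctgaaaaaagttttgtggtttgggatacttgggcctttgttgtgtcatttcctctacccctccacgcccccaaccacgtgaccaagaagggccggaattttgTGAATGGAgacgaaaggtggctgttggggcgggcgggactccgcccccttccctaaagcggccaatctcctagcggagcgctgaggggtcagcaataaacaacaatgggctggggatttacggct

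The ternary complex factors ELK1, ELK3 and ELK4 bind beside the serum response factor SRF at promoters of growth-induced genes, and ELK3 represses until it is phosphorylated. ELK4 read 9.85, 9.94, 9.62 and 9.62 with SB590885, 9.56, 9.65, 9.20 and 9.32 with PD325901, and 9.89, 10.07, 9.73 and 9.75 with DMSO. All PD325901 arrays lay under all DMSO arrays, and those of SB590885 and DMSO overlapped. The PD325901 difference was -0.43 (SE 0.11, adjusted p = 0.207). Within same-numbered arrays it was -0.33, -0.42, -0.53 and -0.43, and with the replicate number as a block it passed (SE 0.04, adjusted p = 2.82e-05). Between the inhibitors the ELK4 difference was 0.33 (SE 0.11, adjusted p = 0.195, and adjusted p = 0.000124 with the replicate block).

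ELK3 read 10.69, 10.65, 10.11 and 9.91 with PD325901, against 11.06, 10.85, 10.56 and 10.25 with DMSO. The groups overlapped, since the marked arrays of both lay below the unmarked ones, while each PD325901 array lay below the DMSO array of its number. The difference was -0.34 (SE 0.23, adjusted p = 0.947) without the block and had an adjusted p of 0.000814 with the replicate block, a call that was lost with a random replicate block (adjusted p = 0.116). With SB590885 the ELK3 arrays lay between 10.36 and 11.07, a difference of 0.05 from DMSO (SE 0.23, adjusted p = 0.983) that also missed with the block (adjusted p = 0.588). Between the inhibitors the ELK3 difference was 0.39 (SE 0.23, adjusted p = 0.564, and adjusted p = 9.25e-05 with the replicate block). The other ELK3 probe set, 206127_at, lay under 7.23 in every group. It gave 0.04 for PD325901 against DMSO and -0.02 between the inhibitors (adjusted p = 0.819 and 0.9 with the block). With the mean of both probe sets the PD325901 difference was -0.15 in place of -0.34, and it still passed with the block.

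ELK1 read 8.91, 8.83, 8.73 and 8.69 with SB590885, 8.64, 8.65, 8.63 and 8.52 with PD325901, and 8.70, 8.71, 8.64 and 8.59 with DMSO. Every SB590885 array lay above every PD325901 array. The difference between the inhibitors was 0.18 (SE 0.06, adjusted p = 0.136, and adjusted p = 0.00773 with the replicate block). It passed in 15 of 17 settings of the block, but not with quantile normalisation or the mean of the gene's probe sets (highest adjusted p = 0.244). The ELK1 probe sets 210376_x_at and 210850_s_at, both under 7.23, gave 0.06 and -0.01 (adjusted p = 0.565 and 0.945 with the block). Against DMSO the SB590885 difference was 0.13 (adjusted p = 0.33), and adjusted p = 0.0472 with the block. This last call held in 4 of 17 settings of the block, so it rests on a narrow margin. The probe set that stands for ELK1, 203617_x_at, carries the suffix _x_at, which Affymetrix gives to probe sets that may also read other transcripts.

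The RefSeq table held 13 promoters for 6 of the 10 genes (ETV1, ETV6, ELK1, ELK3, ELK4 and ETS2). The ELK4 promoter is shown because it alone of the 13 had the ETS site CCGGAAG in the 250 bases before the start. The same 7 letters, sought on both strands, occurred in 8.517% of all promoters. The window, chr1:205632012-205632261 on the minus strand (GRCh38.p14, RefSeq), has the site at positions -22 to -16 in capitals. Its GC content was 69.2%, against a median of 58.0% over all promoters. No promoter of the 6 genes held the AP-1 site TGANTCA (6.573% of all promoters), the cAMP response element TGACGTCA (1.646%) or the CArG box that SRF reads (1.159%).
ELK4 promoter: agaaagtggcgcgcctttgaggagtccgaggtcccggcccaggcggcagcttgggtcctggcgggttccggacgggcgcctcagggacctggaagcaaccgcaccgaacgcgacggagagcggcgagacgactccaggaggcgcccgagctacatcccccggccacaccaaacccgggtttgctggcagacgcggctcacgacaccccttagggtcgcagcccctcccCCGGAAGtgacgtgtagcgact

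The 7 ELK4 probe sets did not move together. The probe set 238761_at read 9.13, 9.19, 7.32 and 7.56 with SB590885, 7.55, 7.48, 7.13 and 6.97 with PD325901, and 8.14, 8.06, 7.51 and 7.42 with DMSO. With SB590885 it lay well above DMSO on both unmarked arrays and near DMSO on both marked ones. The SB590885 difference was -0.03 on marked and 1.06 on unmarked arrays, and the difference between these was -1.09 (SE 0.12, adjusted p = 0.00552 over 54613 probe sets, with n = 2 arrays per cell). Of all probe sets 6, or 0.011%, passed this test, which was added after the data had been seen. For PD325901 the same probe set gave 0.16 (adjusted p = 0.88), and 0 probe sets passed. Its own group difference for SB590885, 0.52 (SE 0.39, adjusted p = 0.768), was thus an average over unlike sets. The probe set 206919_at was lower with both inhibitors, at -0.23 for SB590885 (adjusted p = 0.617, and adjusted p = 0.00784 with the replicate block) and -0.25 for PD325901 (adjusted p = 0.998, and adjusted p = 0.0141 with the block). Between the inhibitors 238761_at gave 1.02 and 206919_at 0.01 (adjusted p = 0.00212 and 0.934 with the block). With the mean of all 7 probe sets the ELK4 difference for PD325901 was -0.17 in place of -0.43, with a blocked adjusted p of 0.0256.

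**Figure D3:**
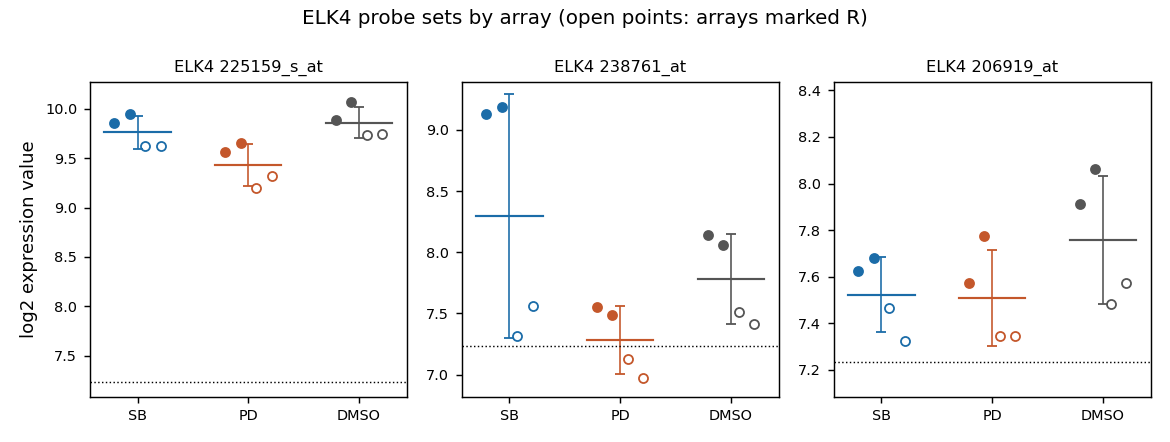
Log2 expression value (y axis) of 3 ELK4 probe sets on each array by treatment (x axis), with means as bars, error bars of 1 SD (n = 4), open points for arrays marked R and a dotted line at 7.23. In the middle panel the unmarked SB590885 arrays, at 9.13 and 9.19, lie apart from all other arrays.

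ETS1 and ETS2 are founding members of the family, and ERK phosphorylates both near their pointed domain. ETS1 read 8.98, 8.75, 8.11 and 7.92 with SB590885, 9.01, 8.99, 8.59 and 7.88 with PD325901, and 8.89, 8.76, 8.49 and 7.86 with DMSO. The groups overlapped almost wholly, and array 4 was lowest in each. The differences were -0.06 (95% confidence interval -0.73 to 0.62) for SB590885 and 0.12 (-0.56 to 0.79) for PD325901, neither of which passed with or without the block. With the replicate block the intervals were -0.21 to 0.10 and -0.04 to 0.28. For the minor ETS1 probe set 1555355_a_at the inhibitors differed by -0.25 (SB590885 minus PD325901, adjusted p = 0.56, and adjusted p = 0.016 with the block). ETS2 lay under the median of all probe sets, at 6.83 ± 0.09 with SB590885, 6.90 ± 0.13 with PD325901 and 6.86 ± 0.05 with DMSO, and none of its 3 probe sets exceeded 7.23.

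FLI1, a neighbour of ETS1 on chromosome 11 with 0 protein-coding genes between them, is an ETS activator of blood cells and blood vessels. It read 10.87, 10.81, 10.26 and 10.19 with SB590885, 10.96, 10.99, 10.41 and 10.34 with PD325901, and 11.11, 11.08, 10.58 and 10.76 with DMSO. Groups overlapped, but each array of either inhibitor lay below its same-numbered DMSO array, in 4 of 4 pairs. For SB590885 the FLI1 difference was -0.35 (SE 0.20, adjusted p = 0.556) without the block and had an adjusted p of 0.000521 with the replicate block. For PD325901 it was -0.21 (SE 0.20, adjusted p = 0.984), with a blocked adjusted p of 0.032 that held in 10 of 17 settings of the block and was lost with a random replicate block (adjusted p = 0.306). At the probe set level with the block, 3 of 6 FLI1 probe sets were lower with SB590885 and 2 with PD325901, where 6.83% and 3.61% of all probe sets were. Among them 210786_s_at differed by -0.33 for SB590885 (adjusted p = 0.295, and adjusted p = 0.00038 with the block). With the mean of all 6 probe sets the FLI1 differences shrank to -0.16 and -0.11.

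ETV6 encodes TEL, an ETS repressor needed for blood stem cells. It read 9.41, 9.48, 9.37 and 9.29 with SB590885, 9.27, 9.23, 8.67 and 9.01 with PD325901, and 9.49, 9.47, 9.13 and 9.31 with DMSO. Every PD325901 array lay under every SB590885 array, and PD325901 overlapped DMSO. The difference between the inhibitors was 0.35 (SE 0.12, adjusted p = 0.205, and adjusted p = 0.00253 with the replicate block). Against DMSO the PD325901 difference was -0.31 (SE 0.12, adjusted p = 0.6). With the block it had an adjusted p of 0.0137, which ended without PD325901 array 3, DMSO array 1 or DMSO array 4 (highest adjusted p = 0.0584). Another ETV6 probe set, 235056_at, gave -0.24 for PD325901, with an adjusted p of 0.0344 with the block. The probe set 239364_at, also above 7.23 in every group, gave -0.02 (adjusted p = 0.935 with the block). Between the inhibitors 235056_at gave 0.23 and 239364_at -0.11 (adjusted p = 0.0206 and 0.234 with the block). With the mean of all 5 probe sets the ETV6 difference for PD325901 was -0.12 in place of -0.31, and it still passed with the block.

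**Figure D4:**
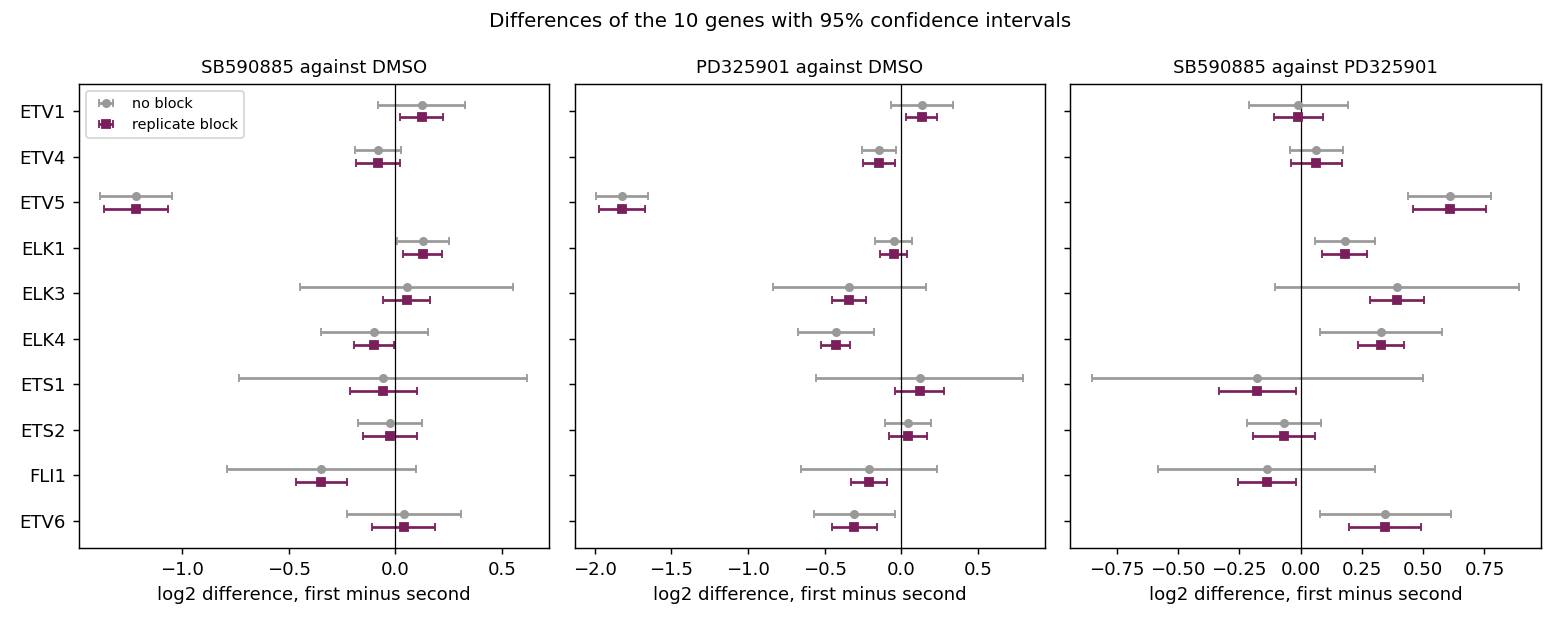
Log2 difference (x axis) of each of the 10 genes (y axis) in the 3 comparisons, first treatment minus second, with 95% confidence intervals, grey without and purple with the replicate block; each panel has its own x range. ETV5 lies apart from 0 by far more than the others, and the block narrows the intervals of ELK3, ELK4, ETS1, FLI1 and ETV6.

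With the replicate block, the count of called members was 1 higher (ELK1) and 2 lower (ETV5, FLI1) for SB590885 against DMSO, where 18.9% of all genes were called, 9.09% higher and 9.84% lower. For PD325901 against DMSO it was 5 lower (ETV5, ETV6, ELK3, ELK4, FLI1) and 0 higher, where 8.14% were called, 6.18% lower and 1.96% higher. Between the inhibitors 5 were higher with SB590885 (ETV5, ETV6, ELK1, ELK3, ELK4) and 0 lower, where 18.1% were called, 12.4% higher and 5.73% lower. The comparisons share arrays, so these counts are not separate observations. Lower in 4 of 4 same-numbered pairs with PD325901 were 7 of the 10 genes, where 18.5% of all genes were, and with SB590885 3, where 16.9% were. Higher in 4 of 4 pairs were 1 gene with PD325901 (ETS1) and 2 with SB590885 (ETV1 and ELK1). No share over all genes is given for these. Not overlapping DMSO on the low side were 3 genes with PD325901 (ETV4, ETV5, ELK4), where 2.68% of all genes were, and 1 with SB590885 (ETV5), where 5.76% were. Between the inhibitors 6 genes were higher with SB590885 in 4 of 4 pairs, where 18.2% of all genes were, and 3 without overlap (ETV5, ETV6, ELK1), where 4.68% were. FLI1 alone was lower with SB590885 in 4 of 4 of these pairs, again with no share over all genes given.

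The level of 6 members was lower on marked arrays, and in ETS1, ELK3 and FLI1 the marked and unmarked arrays did not overlap. For these counts no share over all genes was computed, so they are not read as a trait of the members. Between marked and unmarked arrays the level of ETS1 differed by -0.75, of ELK3 by -0.60, of FLI1 by -0.55, of ELK4 by -0.29, of ETV6 by -0.26 and of ELK1 by -0.11, where the median over all genes was 0.01. ETV1 differed the other way, by 0.22, with overlapping arrays, and ETV5 by 0.03. Treatment differences within each set ran the same way for the genes called with the block. The PD325901 difference of ELK4 was -0.48 on marked and -0.37 on unmarked arrays, that of ELK3 -0.39 and -0.29, and that of ETV6 -0.38 and -0.23. For FLI1 the SB590885 difference was -0.44 on marked and -0.25 on unmarked arrays.

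**Figure D5:**
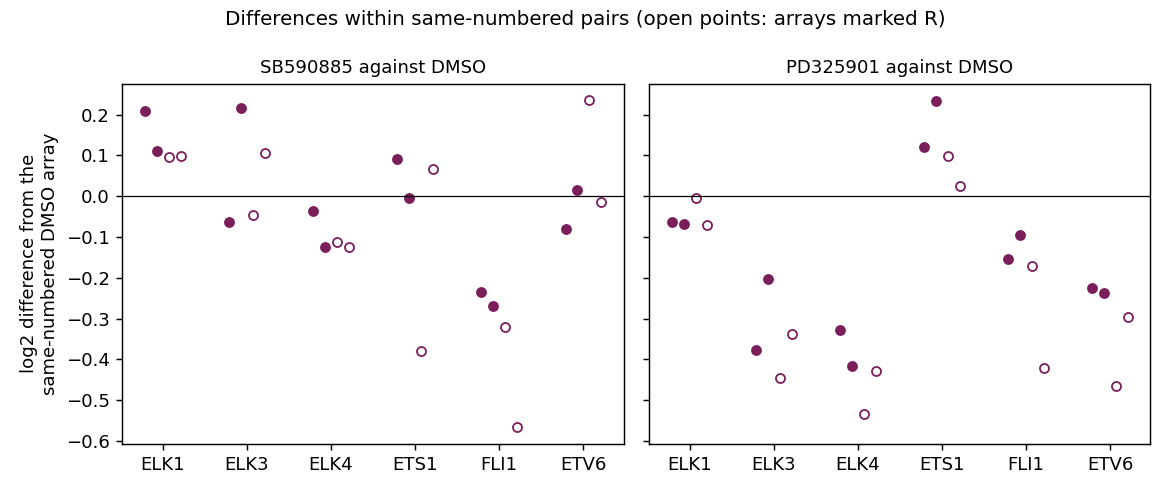
Log2 difference from the DMSO array of the same number (y axis) for 6 of the genes (x axis), by inhibitor, 1 point per pair and open points for arrays marked R. With PD325901 all 4 points of ELK1, ELK3, ELK4, FLI1 and ETV6 lie below 0, those of ELK1 narrowly, and all 4 of ETS1 lie above 0. With SB590885 all 4 of ELK4 and FLI1 lie below 0, and all 4 of ELK1 lie above 0.

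Around the 10 genes, 4 lists describe the rest of the pathway. The lists were chosen with earlier results of these data known, so their counts are a description and no separate support. Without the block 3.28%, 0.592% and 2.82% of all genes passed for SB590885 and PD325901 against DMSO and between the inhibitors. For counts at an unadjusted p no share over all genes was computed. Of 16 other transcripts that follow ERK activity, 4 fell with SB590885 and 6 with PD325901, both against DMSO, 0 rose with either, and 12 and 10 did not pass. Of all genes 1.69% fell with SB590885 and 0.506% with PD325901. With the replicate block 9.84% of all genes fell and 9.09% rose with SB590885, and 6.18% fell and 1.96% rose with PD325901. Of the 16, with the block, 6 fell and 1 rose with SB590885, and 7 fell and 0 rose with PD325901. The 1 that rose was DUSP5, an ERK phosphatase of the nucleus, by 0.40 (adjusted p = 0.615, and adjusted p = 0.0137 with the block), named after its values were seen. DUSP6, a phosphatase that switches ERK off, differed by -0.97 with SB590885 (adjusted p = 0.00639) and by -2.64 with PD325901 (adjusted p = 4.6e-06). DUSP4, another ERK phosphatase, differed by -0.92 with SB590885 (adjusted p = 0.0104) and by -1.44 with PD325901 (adjusted p = 0.00123). SPRED2, an inhibitor of Raf activation, gave -0.34 with SB590885, which did not pass (adjusted p = 0.0586, and adjusted p = 0.00441 with the block), and fell by 1.83 with PD325901 (adjusted p = 1.06e-06). MYEOV, also among the genes most like ETV5 above, fell by 0.24 with SB590885 (adjusted p = 0.0364) and by 0.42 with PD325901 (adjusted p = 0.00407). SPRY1, a feedback inhibitor, fell by 0.46 with SB590885 (adjusted p = 0.00609) and by 0.43 with PD325901 (adjusted p = 0.012). With PD325901 the means of DUSP6 (6.97), SPRED2 (6.93) and MYEOV (7.20) lay under 7.23, so the sizes of their falls, and differences from these means, are not exact. DUSP5 was higher with SB590885 than with PD325901 by 1.51 (adjusted p = 0.00797), as were DUSP6, SPRED1 and SPRED2, and 12 of the 16 did not pass in that comparison. Of all genes 1.97% were higher there. The list's median difference was -0.07 for SB590885, -0.11 for PD325901 and 0.09 between the inhibitors.

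Of 17 other ETS genes measured, 0 passed in any comparison by limma without the block. At an unadjusted p under 0.05 there was 1 higher with SB590885, 1 lower with PD325901 and 0 between the inhibitors. The replicate block called 0, 2 and 2, where it called 18.9%, 8.14% and 18.1% of all genes. ELF4, an ETS factor of lymphocytes, differed by -0.37 with PD325901 (adjusted p = 0.607, and adjusted p = 0.0272 with the block), and ETV3, a repressor, by 0.25 between the inhibitors (adjusted p = 0.775, and adjusted p = 0.00216 with the block). ETV2, which had the smallest p for SB590885, differed by 0.12 (adjusted p = 0.301), and EHF by 0.10 with PD325901 (adjusted p = 0.815), both at means under 7.23. Median differences were 0.03, 0.00 and 0.01.

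Repressors, ubiquitin ligase parts and cofactors of the ETS proteins, with the ERK genes, made 16 measured genes, of which 0 passed without the block. Unadjusted, 2 were higher with SB590885, 2 lower with PD325901 and 3 higher between the inhibitors. With the replicate block 3 were higher and 2 lower with SB590885, 3 lower with PD325901, and 5 higher and 1 lower between the inhibitors. Of all genes 9.09% were higher and 9.84% lower with SB590885, 6.18% lower with PD325901, and 12.4% higher and 5.73% lower between the inhibitors. CBFB, the partner subunit of RUNX factors, differed by -0.40 with PD325901 (adjusted p = 0.292, and adjusted p = 0.000235 with the block). COP1, a ligase subunit that degrades PEA3 proteins, differed by -0.24 (adjusted p = 0.479, and adjusted p = 0.0312 with the block). MRTFB, an SRF cofactor, differed by 0.34 with SB590885 (adjusted p = 0.257, and adjusted p = 0.000299 with the block).

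Of 12 measured genes that SRF and the ternary complex factors switch on, 0 passed without the block, with 0 unadjusted for either inhibitor against DMSO and 2 higher between the inhibitors. The block called 2 higher with SB590885, 0 with PD325901 and 4 higher between the inhibitors. Of all genes it called 9.09% higher with SB590885, 8.14% in either direction with PD325901 and 12.4% higher between the inhibitors. IER5, an immediate early gene, read 9.35 ± 0.45 with SB590885 and 8.79 ± 0.33 with PD325901, a difference of 0.56 (adjusted p = 0.268, and adjusted p = 0.000264 with the block). ZFP36, which destabilises cytokine messages, differed by 0.28 between SB590885 and DMSO (adjusted p = 0.719, and adjusted p = 0.000712 with the block). The medians of this list were 0.07 for SB590885, -0.08 for PD325901 and 0.12 between the inhibitors.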

How the data were processed

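The authors deposited log2 values per probe set of the Affymetrix HG-U133 Plus 2.0 array, made with RMA in R 3.0.1, per the submitters' processing notes; 100 ng of total RNA was amplified per array, per the labels' protocols. The sources used here do not say whether all 12 arrays were normalised together. RMA shrinks differences of dim probe sets. Of 54675 probe sets, 62 controls were left out; GEO's platform annotation gave 1 symbol to 41091, several to 1801 and none to 11721. A gene was its probe set with the highest mean. limma 3.58.1 in R 4.3.3 fitted group means over all arrays, with Benjamini-Hochberg adjustment over all genes or probe sets, and was tested on simulated data. Precision is limited by 4 arrays per group. Same-numbered arrays of different groups deviated together (r = 0.544 to 0.913 in 12 pairs), and the best partner had the same number for 12 of 12 arrays. The labels' replicate numbers were therefore taken as pairs. The blocked value is given where it changes the call of a member gene. For differently numbered arrays r was 0.123 to 0.646 within a set of equal R mark and -0.718 to -0.443 across sets. Named genes were the 10 members, up to 4 genes of each list by smallest p in each comparison, and the 5 genes most like ETV5. Members and lists were chosen with earlier results of these data known. Alternatives were the block, the R mark, normalisation, dim genes, probe set choice, prior, samples in the fit and left-out arrays. Promoters came from RefSeq (GRCh38.p14). Other lists had no test.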

Additional observations from a re-analysis of the deposited data

Results flagged for a closer look

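Of 123 groups of 4 arrays, 1 per member probe set and treatment, 6 held an array that stood apart from the other 3 by Dixon's criterion, which chance meets in about 1 group in 20. With PD325901, array 1 of ETV5 203349_s_at was lowest at 6.70, where the others were 6.94 to 6.99, and array 4 of ELK1 203617_x_at was lowest at 8.52, where the others were 8.63 to 8.65. With SB590885, array 3 of ETV5 230102_at was highest at 7.03 (others 6.75 to 6.77) and array 1 of FLI1 211825_s_at lowest at 7.63 (others 7.90 to 7.95). With DMSO, array 4 of ETS1 1555355_a_at was lowest at 6.85 (others 7.15 to 7.16) and array 3 of FLI1 234614_at highest at 6.67 (others 6.44 to 6.47).

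The effect of SB590885 on ELK4 238761_at differed between arrays with and without the R mark, by -1.09 (SE 0.12, adjusted p = 0.00552). It was -0.03 on marked and 1.06 on unmarked arrays, and no source used here says what the mark stands for.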

How the results depend on the processing

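ETV5 kept its direction and its call in all 3 comparisons under 23 alternatives without the replicate block and 17 with it, with differences of -1.26 to -0.57 for SB590885 against DMSO, -1.89 to -0.83 for PD325901 against DMSO and 0.26 to 0.68 between the inhibitors without the block. No call of any member reversed. Without the block the count of called members was 1 in each comparison and stayed 1 whichever array was left out (1 to 1).

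For SB590885 against DMSO it was 3 with the replicate block, as a random block and with the R mark as a term, and 2 on arrays with or without the mark alone. For PD325901 against DMSO it was 5 with the replicate block, 3 as a random block (ETV5, ETV6 and ELK4, without ELK3 and FLI1), 5 with the R mark, 5 on marked arrays, 1 on unmarked arrays (ETV5) and 2 after quantile normalisation. For SB590885 against PD325901 it was 5 with the replicate block, 5 as a random block, 5 with the R mark, 5 on unmarked and 4 on marked arrays, and 3 after quantile normalisation. Combinations of the replicate block with other choices, added after the data had been seen, gave 2 to 3, 3 to 5 and 4 to 6: with quantile normalisation 2, 4 and 4, with centred arrays 2, 5 and 5, with the mean of a gene's probe sets 2, 5 and 4, and without all arrays of replicate 2 2, 5 and 5. With the block and the mean of a gene's probe sets, the 5 for PD325901 against DMSO held ETV4 in place of FLI1. The causes were not tested.

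Over all genes, quantile normalisation gave 173 higher and 176 lower for PD325901 against DMSO in place of 17 and 100, and 877 and 678 in place of 389 and 169 between the inhibitors. For SB590885 against DMSO it gave 870 and 764 in place of 315 and 334, and centring 143 and 239. ETS2 gave no value with dim genes left out. ETV1 and ETS2 had no probe set above the dim-signal mark, which limits what the arrays show of them.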
